A study of Daphnia magna with 24 samples.

Results

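Of the 7680 array features measured in Daphnia magna, 38 were lower on average in animals held in water from the Walker Mine tailings, from Little Grizzly Creek and from upstream of the mine than in unexposed control animals on the same arrays. They were chosen by their mean log ratios. The mean had to be at or below -0.8 at both tailings and Little Grizzly Creek and at or below -0.4 upstream, among the 6504 features for which each of the 4 sites had at least 2 exposures with values. The 38 make up 0.584% of those 6504. The fall at tailings, creek and upstream is therefore how these features were found and not a result. Portal water was not read by the thresholds, nor was the way in which exposures of one site departed from their mean.

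Daphnia magna is a freshwater crustacean, the water flea, widely used to test water quality. Copper is an essential cofactor of many enzymes but is toxic in excess, and in freshwater crustaceans it is known to disturb sodium uptake. Animals answer metals in part through metal-binding proteins and antioxidant enzymes. None of the 7680 feature identifiers matched any of the 28335 genes of the RefSeq table used here, so no feature can be assigned to such a pathway, and features are given by their deposited identifiers, without gene names, roles or sequences.

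The exposed groups were adult females, 14 to 16 days old, of a genetically homogeneous culture, held for 24 h at 23.5 °C in water from downstream of the tailings, Little Grizzly Creek, downstream of the mine portal, or upstream. The control was unexposed laboratory animals in COMBO, a defined culture medium. Each of the 4 sites had 3 exposures of 10 to 15 pooled whole animals, which the labels call biological replicates, and each exposure was hybridised on 2 two-colour arrays with the dyes exchanged. In whole animals, fewer cells of a type and less RNA per cell cannot be told apart. The design text says that copper differed between the sites without giving concentrations.

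Values are deposited log ratios, read here as log2, averaged over both arrays of an exposure, and negative means lower in exposed animals. This direction is likely and not stated, being taken from the channel order in the labels. If it ran the other way, every fall below would be a rise. The 2 arrays of each exposure correlated between 0.616 and 0.91 across features, so the authors had already turned them one way. When arrays labelled the same way round were paired, 5 of 132 pairs had a correlation under -0.3, down to -0.376. An array of upstream exposure 2 and one of upstream exposure 3 formed 1 of these 5. The sign of single exposures is therefore not fully settled. Arrays held 5106 to 7548 values. Portal exposure 3 had the fewest features measured on both arrays, 4531. No brightness per channel was used, so the precision of a value rests on the number of arrays.

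The median over the 38 features was -1.04 at tailings, -1.40 at Little Grizzly Creek, -0.85 at the portal and -0.63 upstream, where the median over all 6504 tested features lay between -0.0193 and -0.0025 at each site. Site means ran from -3.40 to -0.803 at tailings, from -3.39 to -0.887 at the creek, from -2.32 to 0.0228 at the portal and from -2.19 to -0.403 upstream. The creek mean was below the tailings mean in 30 of the 38. The upstream mean was below the tailings mean in 10 and at or below -0.8 in 13. At the edges of the thresholds, P11CC4 was just inside with an upstream mean of -0.403, and P8DF3 with a tailings mean of -0.803. P1CG12 was just outside with a tailings mean of -0.796. In all, 16 features lay inside by less than 0.05 and 17 outside by less than 0.05.

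**Figure D1:**
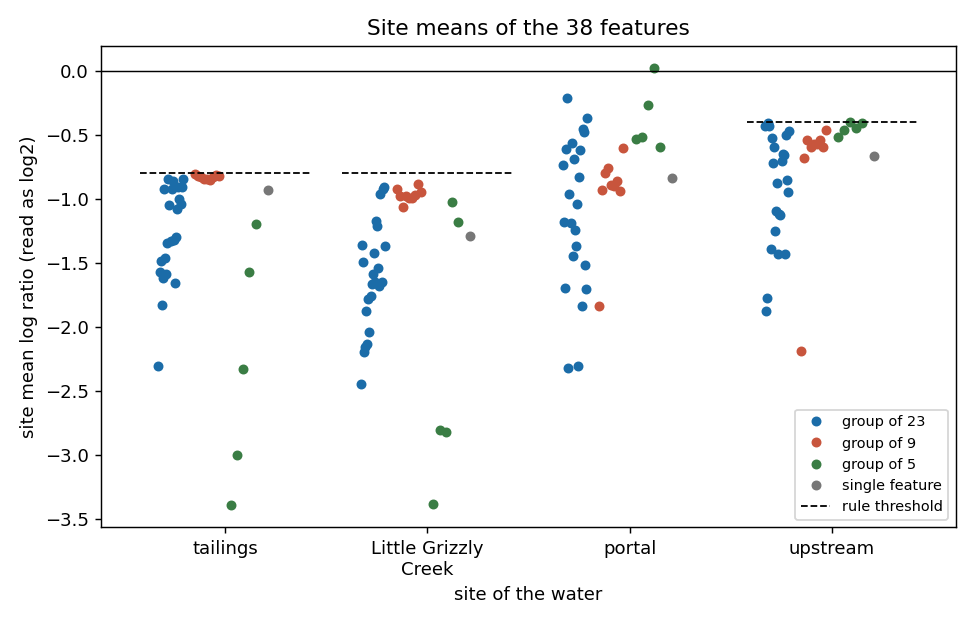
Mean log ratio (read as log2, vertical axis) of each of the 38 features in the 4 waters, 1 point per feature, coloured by the group its exposures fall into; dashed lines are the thresholds that chose the features, and the portal has none. At the portal 37 of the 38 points lie below 0.

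A fall at all 3 sites held for the means but not for every exposure. Upstream, 21 of the 38 features were negative in every exposure with a value, against 31 at tailings and 30 at the creek. All 38 were negative in upstream exposure 1, from -3.26 to -0.322, and 31 of 34 in upstream exposure 3, from -3.08 to 0.949. In upstream exposure 2, 21 of 36 were negative and 15 positive, with a median of -0.20. Across all tested features 55.8% were negative in that exposure. Over tailings, creek and upstream together, 21 features had no positive value, and 20 had none at any of the 4 sites. On single arrays, 11 features were negative on all 24.

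The exposures of one site differed more for these features than for most. The median SD among exposures of a site was 0.638 at tailings, 0.574 at the creek, 0.530 at the portal and 0.504 upstream. Over all tested features it was 0.177, 0.148, 0.194 and 0.142 in the same order of sites. A feature that varies widely reaches a threshold on a mean of 2 or 3 values more easily, so a wide spread is favoured by the way these features were chosen. Within an exposure, the departure of either array from the mean of both had a median size of 0.132 in the 38 and 0.0888 in all tested features. This size is not an SD, and it holds array noise as well as any difference by dye.

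To describe how they varied, the 38 features were clustered on the deviations of their 12 exposures from the site means, by average linkage on 1 minus Pearson's r and cut at 0.5. Site means do not enter these deviations. This gave groups of 23, 9 and 5 features and P1CG1 alone, with 6 clusters at a distance of 0.4 and 3 at 0.6. The median pairwise r was 0.756 in the group of 23, 0.958 in the group of 9 and 0.698 in the group of 5, which the clustering itself favours. It was 0.227 over all pairs of the 38 and -0.002 over pairs of the 3661 features with 12 values. The lowest pairwise r was -0.159 in the group of 23, 0.673 in the group of 9 and 0.473 in the group of 5. Of the 8 features of the group of 23 with 12 values, 1 correlated at 0.9 or more with the group's median profile. In the groups of 9 and 5, 7 of 8 and 3 of 3 such features did. The groups are descriptions drawn after the values were seen and carry no test.

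**Figure D2:**
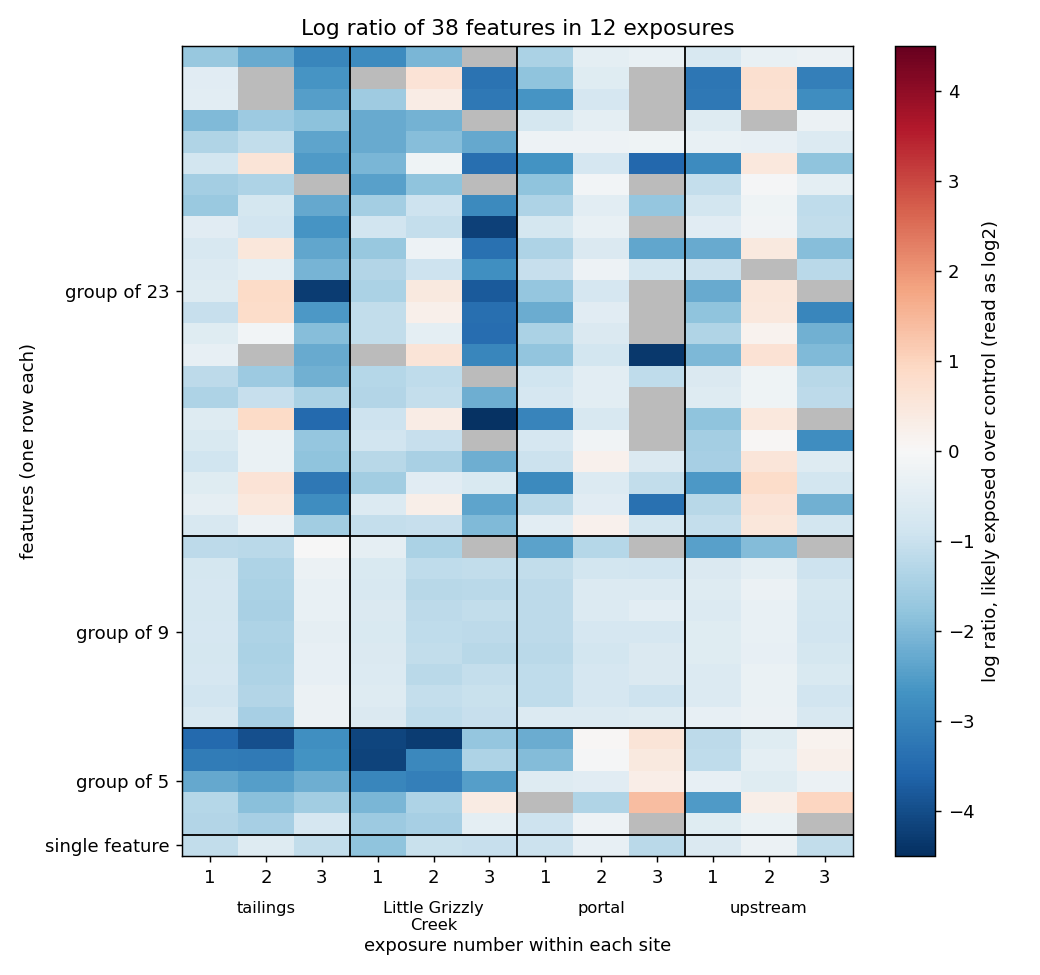
Log ratio (read as log2, colour) of each of the 38 features (rows, by group) in the 12 exposures (columns, by site and exposure number); blue is lower in exposed animals, red higher and grey a blank. Red cells in the group of 23 lie in exposure 2 of tailings, creek, portal or upstream, and those in the group of 5 mostly in exposure 3 of portal and upstream.

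The group of 23 held 19 of the 20 features whose identifier begins with A. Its medians were lowest in exposure 3 of tailings and creek, at -2.36 and -3.08, with all measured values negative and creek exposure 3 blank in 5 features. Single features departed from this. A1D5 stood at -0.696 in creek exposure 3 and at -1.55 in creek exposure 1, and A7E21 was lowest in portal exposure 3, at -3.53. In exposure 1 the medians were -0.72 at tailings, -1.34 at the creek, -1.38 at the portal and -1.35 upstream. In exposure 2 they were -0.30 at tailings, -0.94 at the creek and -0.48 at the portal, and 0.46 upstream. The upstream mean of the group was thus lowered by exposures 1 and 3 and raised by exposure 2.

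Within this group, 14 features were positive in upstream exposure 2, between 0.0457 and 0.842. The same 14 stood between -3.26 and -1.09 in upstream exposure 1 and, where measured, between -3.08 and -0.567 in upstream exposure 3. Their values in exposure 2 were positive for 7 of 11 at tailings and for 7 of 14 at the creek. In tailings exposure 2, A7A14, A4N5 and A7A2 were blank because only the second array had a value, at 1.32, 1.05 and 1.23. The tailings means of these features leave out those positive arrays. At the portal, 12 of the 14 were negative in exposure 2, with a median of -0.62. As deposited, portal and upstream exposure 2 thus had opposite signs in 12 of these 14 features. Turning upstream exposure 2 would give those 12 the same sign by arithmetic, and would set it against the positive tailings and creek values. As deposited, deviations from site means over tested features correlated positively between upstream exposure 2 and exposure 2 of each other site. The correlations were 0.571 with tailings, 0.59 with the creek and 0.587 with the portal. A deviation from a site mean also holds the other exposures of that site. The SD over tested features was 0.282 in upstream exposure 2, against 0.514 and 0.552 in upstream exposures 1 and 3. These correlations therefore cannot tell the sign of upstream exposure 2. Which sign is right was not tested.

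A7E24 had the widest range over exposure numbers among the features that passed the test of exposure number given below. It measured -0.58, 0.858 and -3.51 in tailings exposures 1, 2 and 3 and -0.926, 0.329 and -4.45 in creek exposures 1, 2 and 3. It measured -2.98 and -0.705 in portal exposures 1 and 2, and -1.80 and 0.476 in upstream exposures 1 and 2, with exposure 3 blank at both sites. Exposure 3 was the low one at tailings and creek, and exposure 2 was positive at 3 of the 4 sites. A6J7 had the same order, at -0.591, 0.854 and -4.26 at tailings and at -1.43, 0.444 and -3.79 at the creek. In portal exposures 1 and 2 it stood at -1.72 and -0.765, and in upstream exposures 1 and 2 at -2.26 and 0.502. The values in tailings exposure 3 average arrays of -4.70 and -2.32 for A7E24 and of -6.16 and -2.36 for A6J7.

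A6N18 and A1D5 had the smallest differences among their tailings, creek and upstream means. A6N18 averaged -0.907 ± 1.70 at tailings, -0.91 ± 1.35 at the creek, -1.71 ± 1.49 at the portal and -0.945 ± 1.41 upstream (SD, n = 3 each). The tailings, creek and upstream means were nearly equal while the SDs exceeded 1.3 at every site. Its 3 values were -0.393, 0.475 and -2.80 at tailings and -1.26, 0.601 and -2.17 upstream. A1D5 averaged -1.04 ± 1.97 at tailings, -0.922 ± 0.553 at the creek, -1.52 ± 1.19 at the portal and -0.857 ± 1.71 upstream (SD, n = 3 each). Exposure 2 was its highest value at all 4 sites. Without exposure 3 the tailings means turned to 0.0412 for A6N18 and 0.0485 for A1D5.

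The other 9 features of the group had no positive value at any site. Their site medians were -1.59 at tailings, -2.04 at the creek, -0.69 at the portal and -0.60 upstream, with the lowest median at the creek. In upstream exposure 2 they stood close to 0, between -0.359 and -0.0378 where measured. P12AG4 and P12DD10, the features with the lowest upstream means among those negative in all 3 upstream exposures, belong here. P12AG4 measured -1.67, -0.791 and -2.30 at tailings, -1.55, -0.943 and -2.87 at the creek, -1.37, -0.463 and -1.72 at the portal and -0.817, -0.205 and -1.14 upstream. Exposure 2 was the least negative and exposure 3 the most negative at every site. P12DD10 measured -1.18, -1.63 and -2.17 at tailings, -1.27 and -1.15 in creek exposures 1 and 2, -0.881, -0.463 and -1.14 at the portal and -0.665, -0.206 and -1.25 upstream. Its mean was lower at tailings (-1.66) than at the creek (-1.21). A6B5 was low at tailings (-1.35, -1.11 and -2.39) and creek (-2.26, -1.93 and -2.30) and close to 0 at the portal, where its 3 exposures lay between -0.222 and -0.196. Its upstream exposures stood at -0.322, -0.359 and -0.61.

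The group of 9 moved in close parallel and held no positive value. Leaving P8DF3 aside, which was done after the values were seen, the other 8 features correlated pairwise at 0.832 or more over the 12 exposures, and in any one exposure they spanned between 0.139 and 0.61 log2 units. Their medians were -0.76, -1.40 and -0.33 in tailings exposures 1, 2 and 3 and -0.66, -1.15 and -1.11 in the creek exposures. They were -1.16, -0.74 and -0.66 in the portal exposures and -0.59, -0.32 and -0.82 in the upstream exposures. Tailings exposure 2 was thus the lowest of the 12, and tailings exposure 3 and upstream exposure 2 were the highest. Whether these are several spots of one transcript cannot be told from the identifiers.

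The same profile continued outside the thresholds. Among the 3661 features with 12 values, 15 correlated at 0.9 or more with the median profile of the group of 9. Of these, 7 were in the group and 8 were not. The 8 had tailings means between -0.796 and -0.649, all above the threshold of -0.8, creek means between -0.966 and -0.719 and portal means between -0.91 and -0.563. The threshold at tailings therefore separated features with alike profiles.

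P8DF3, the ninth, had lower means upstream and at the portal than at tailings and creek, though portal exposure 2 overlapped with creek values. It measured -1.17, -1.23 and -0.0111 at tailings and -0.418 and -1.43 in creek exposures 1 and 2, but -2.40 and -1.29 in portal exposures 1 and 2 and -2.43 and -1.96 in upstream exposures 1 and 2. Its upstream mean of -2.19 was the lowest of the 38 and rested on 2 values. Upstream exposure 3 and creek exposure 3 were blank because only the first array had a value, at -0.148 and 0.218. Both lay above every upstream and creek value that entered its means.

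The group of 5 held the lowest tailings and creek means of the 38. P13DA2 measured -3.48, -3.96 and -2.75 at tailings and -4.13, -4.28 and -1.76 at the creek. Its means of -3.40 ± 0.61 and -3.39 ± 1.41 (SD, n = 3 each) correspond to levels about 10.5-fold lower at both sites if the base is 2. It stood at -2.24, 0.0367 and 0.593 in the portal exposures and at -1.17, -0.553 and 0.169 upstream. Tailings and creek values did not overlap with the upstream ones, whereas portal exposure 1 lay below creek exposure 3.

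P9AG7 followed P13DA2 closely. It measured -3.14, -3.17 and -2.71 at tailings and -4.17, -2.89 and -1.38 at the creek, against -1.93, -0.0472 and 0.423 at the portal and -1.15, -0.449 and 0.215 upstream. P13DA2 and P9AG7 also had the largest differences among their tailings, creek and upstream means. P11CC4 varied less within a site, at -2.31, -2.48 and -2.21 at tailings and -2.92, -3.07 and -2.47 at the creek. It stood at -0.592, -0.501 and 0.287 at the portal and at -0.386, -0.559 and -0.265 upstream. Its creek mean of -2.82 ± 0.313 (SD, n = 3) is about 7.06-fold lower if the base is 2. P9AA5, named after its values were seen, was the 1 feature with a portal mean above 0, at 0.0228 from exposures of -1.35 and 1.40. Its portal exposure 1 was blank because only the first array had a value, at -2.70, which the mean leaves out.

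In the features of this group measured in exposure 3, that exposure was the highest of the numbers at portal and upstream. Of 4 measured features all were positive in portal exposure 3, with a median of 0.51, and 3 were positive in upstream exposure 3. This is opposite to the group of 23, where all 12 measured features were negative in portal exposure 3 and all 21 in upstream exposure 3. Of the 3661 features with 12 values, 114 correlated with its median profile at 0.9 or more. Of these, 3 were among the 38. All 111 others had upstream means above -0.4, up to 0.426, and 66 also missed the tailings threshold and 56 the creek threshold. Their tailings means ran from -2.35 to 0.0753, so the size of the fall differed widely among them. A2B8, named after its values were seen, missed only the upstream threshold. Its means were -2.35 at tailings, -2.46 at the creek and -0.386 upstream. These correlations were taken over the exposure values, which include the differences between sites.

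**Figure D3:**
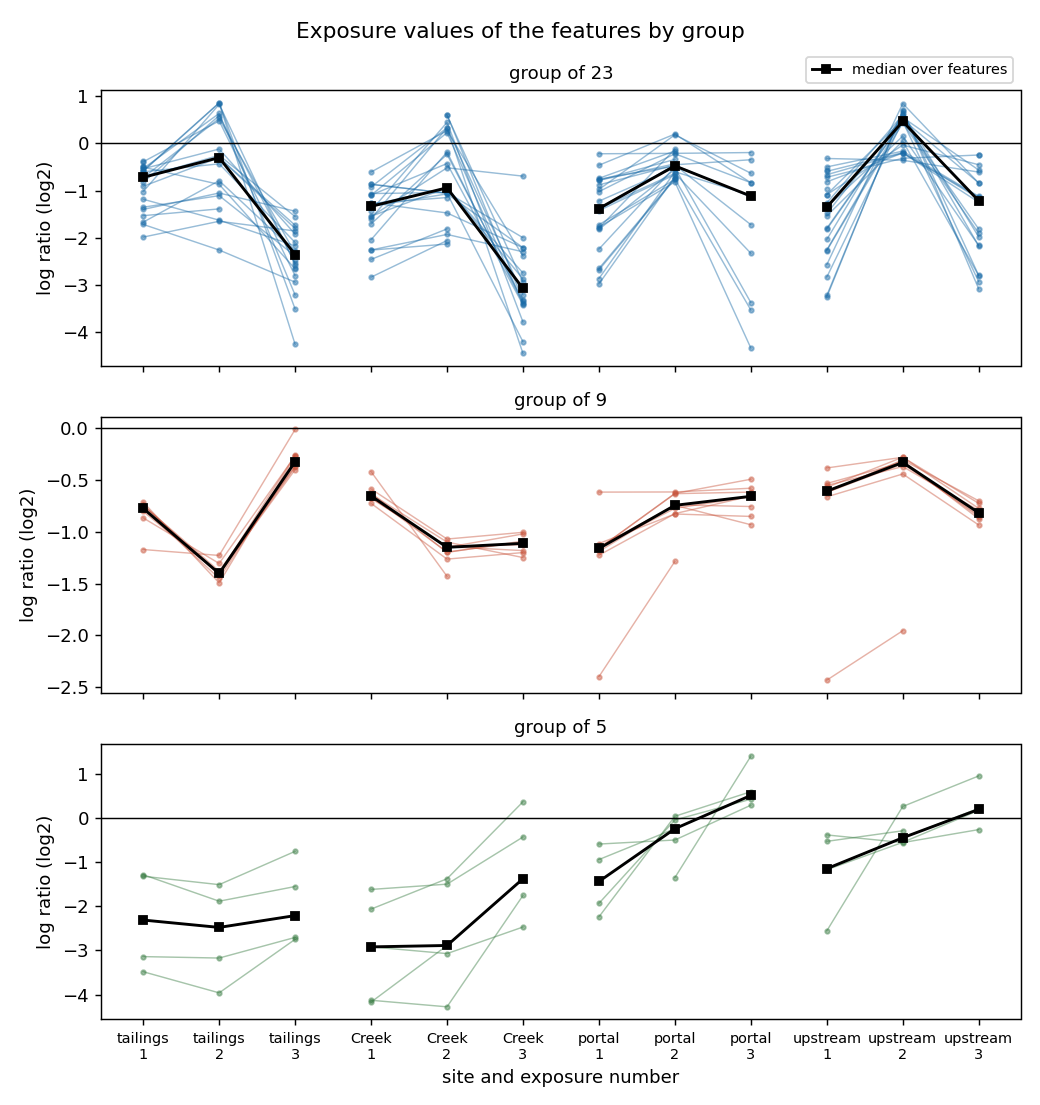
Exposure values (log ratio, read as log2, vertical axis) of each feature by site and exposure number (horizontal axis), in the groups of 23, 9 and 5; coloured lines join the values of one feature within a site and black squares are medians over features. By the medians, exposure 3 is the low one at tailings and creek in the group of 23 and the high one at portal and upstream in the group of 5.

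The test of exposure number compared exposures 1, 2 and 3 over all 4 sites with the site means removed, in a fit of all features. By limma's moderated F with Benjamini-Hochberg adjustment, 545 of 6315 testable features passed (8.63%), and among the 38 features 12 did (31.6%). At an unadjusted p under 0.05 they were 26.1% of all testable features and 23 of the 38. All 12 that passed after adjustment belonged to the group of 23, and in all 12 exposure 2 had the highest and exposure 3 the lowest mean deviation. The groups were formed on the same deviations from site means. A shared order within 1 group is therefore favoured by the clustering and is no separate result. The ranges of these 12 over numbers ran from 0.769 to 4.16 log2 units. Over all tested features the SD was widest in exposure 3 at every site. It was 0.552 upstream, 0.789 at the portal, 0.759 at tailings and 0.707 at the creek. In exposure 2 it was 0.282, 0.286, 0.523 and 0.536 in the same order of sites. With arrays scaled to one median absolute deviation, 10 of the 38 and 384 of all testable features passed. The part of the array-wide scale in the order of the numbers was not tested. A7E24 and A6J7 had adjusted p-values of 0.00208 and 0.00721 by this F test, with ranges of 4.16 and 4.08, and A6J7 had 0.0518 after quantile normalisation. Since features with a wide spread are favoured by the thresholds, the excess over 8.63% is not independent of the choice. The count was 5 of 34 testable members without upstream exposure 2, 5 of 25 without portal exposure 1 and 4 of 24 without portal exposure 2. The share of all testable features fell as well, to 3.58%, 4.36% and 3.63%. With upstream exposure 2 turned, 9 of the 38 passed, all among the 12, against 4.69% of all features, and in these 9 exposure 2 was again the highest and exposure 3 the lowest. What an exposure number stands for (a day, a control batch or a hybridisation) is not stated, and its part in the falls cannot be told apart from replicate spread.

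The portal test asked whether these features also changed in water from downstream of the mine portal. The portal mean was negative in 37 of the 38 features, where 50.9% of all tested features were, and at or below -0.4 in 34, where 10.3% were. All 37 features with a value were negative in portal exposure 1, 35 of 38 in exposure 2 and 21 of 25 in exposure 3. No feature of the 38 passed limma's Benjamini-Hochberg threshold of 0.05, nor did any of the 6504 (0%). At an unadjusted p under 0.05, 16 of the 38 were called, all lower, against 22% of all features in either direction and 10.8% lower. The labels do not say whether portal arrays shared control RNA with those of the other sites, so the portal values may not be independent of the values that chose the features.

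The 6 lowest unadjusted portal p-values by limma lay in the group of 9. All 9 of its features were under 0.05, as were 6 of the group of 23, 0 of the group of 5 and P1CG1. P6DC6, named after its values were seen, measured -1.14, -0.744 and -0.931 in the portal exposures. Its adjusted p by limma, 0.0717, was the smallest of all 6504 features. The portal means of A7E21 and A7A2 were the lowest with 3 values, at -2.32 ± 1.42 and -2.31 ± 1.82 (SD, n = 3 each), with standard errors of 0.827 and 0.914, and neither passed (limma adjusted p = 0.142 and 0.195). Both passed once exposure numbers were fitted as a block, at limma adjusted p-values of 0.00826 and 0.0149. A7E21 measured -2.68, -0.757 and -3.53 at the portal, and A7A2 -1.78, -0.819 and -4.34. The last value of A7A2 averages arrays of -7.93 and -0.745, and without portal exposure 3 its portal mean was -1.30. The highest portal means with 3 values were those of A6B5 (-0.21 ± 0.0131) and P11CC4 (-0.269 ± 0.483; SD, n = 3 each), with adjusted p-values by limma of 0.567 and 0.373.

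The portal count of 0 depended on how the exposures were handled. When exposure numbers were fitted as a block, 21 of the 38 passed by limma, all lower, against 16.7% of all features and 9.84% called lower. These were 13 of the group of 23, 7 of the group of 9, 0 of the group of 5 and P1CG1. The block takes the spread between numbers out of the error, and the group of 23 was formed on deviations that hold this spread. Its part in the count was not tested. With the number as a random effect the count was 0, and it was 0 over all features too. Without portal exposure 2, 6 of 24 testable features passed, all lower, against 6.08% called lower among all features. Of these 5 were in the group of 9. When all 24 arrays were fitted with a term for the dye, 12 passed, 8 of them in the group of 9, against 3.87% of all features. That fit takes both arrays of an exposure as observations, linked by a shared correlation. Among features with all 12 values 6 of 20 passed, all in the group of 9, against 4.64% of such features.

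The nearest comparison set is the 124 features that met the tailings and creek thresholds but had upstream means above -0.4. Together with the 38 they are the 162 features low at tailings and creek. The median portal mean was -0.85 in the 38 and -0.16 in the 124, of which 81 were negative at the portal. In portal exposure 3 the median was -0.76 in the 38, with 4 of 25 values positive, and 0.64 in the 124, with 11 of 79 negative. The tailings medians were -1.04 in the 38 and -1.22 in the 124, and the creek medians -1.40 and -1.22. The features of each set are not replicates and may share control RNA between portal and upstream arrays, so these differences were not tested.

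To see how far the thresholds carry over to exposures they did not read, features were chosen on 2 exposure numbers at all sites and read in the third. With number 1 left out, 29 features met the thresholds. In exposure 1, 28 of 29 were negative at tailings (96.6%), 28 of 28 at the creek, 29 of 29 at the portal and 28 of 28 upstream, where 46% to 49.1% of all features were. With number 2 left out, 63 features met them. In exposure 2 they were negative in 27% of cases at tailings, 43.5% at the creek, 92.1% at the portal and 20.3% upstream, against 54.1%, 52.1%, 54.2% and 57% of all features. As deposited, exposure 2 was thus positive for most of these features at tailings, creek and upstream. With upstream exposure 2 turned, 79.7% of them would be negative there, which only restates the 20.3%. With number 3 left out, 73 features met them, and 87.1%, 78%, 33.3% and 53% were negative in exposure 3 at tailings, creek, portal and upstream, against 44.3%, 47.6%, 53.9% and 52.2% of all features. Of the 29, 63 and 73 features, 14, 12 and 17 were among the 38.

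**Figure D4:**
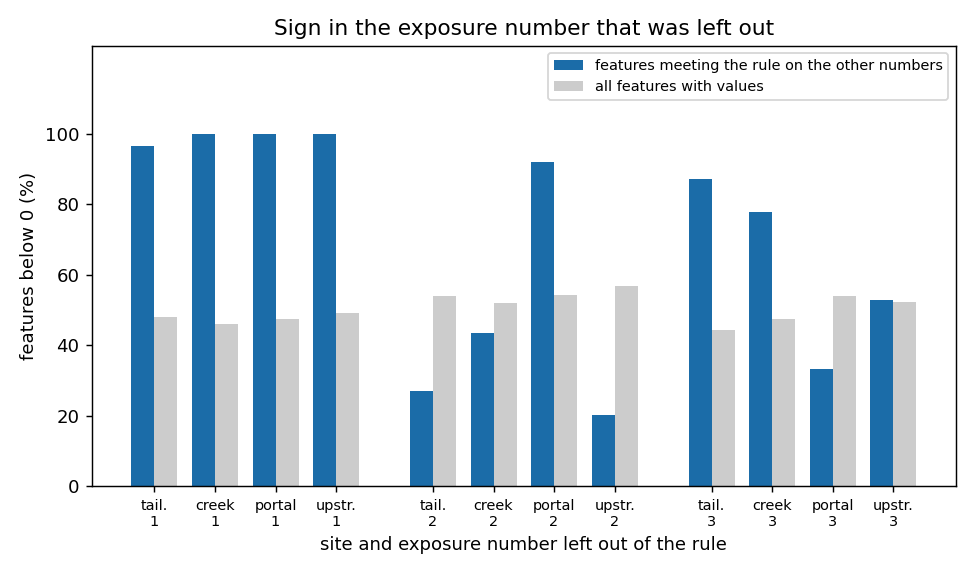
Share of features with a negative log ratio (percent, vertical axis) in the exposure number that was left out when features were chosen, by site (horizontal axis); blue bars are features that met the thresholds on the other numbers, 29, 63 and 73 for numbers 1, 2 and 3, and grey bars all features with values. Blue bars reach at least 96.6% for number 1 and stand at 20.3% upstream for number 2.

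The number of features that met the thresholds also moved when single exposures were left out. It was 117 without tailings exposure 2, of which 28 were among the 38, and 25 and 24 without portal exposures 1 and 2, where both remaining portal values are needed and portal exposure 3 was blank in 13 of the 38. Without upstream exposure 2 it was 41, of which 33 were among the 38. With upstream exposure 2 turned it was 24, of which 23 were among the 38.

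Identifiers were unevenly spread. Those beginning with A made up 20 of the 38 (52.6%) and 28.1% of all tested features. The stems A6 and A7 gave 8 of 325 and 9 of 259 tested features (2.46% and 3.47%), against 0.584% of all tested features, and A2, A3, A5, P2, P3 and P10 gave none. The sources used here do not say what the letters and numbers stand for. In upstream exposures 1 and 3, the SD across tested features was 0.709 and 0.808 for A identifiers and 0.402 and 0.363 for P identifiers. The part of this wider spread in the choice of features was not tested.

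The dye offset, taken here as the departure of the array with exposed animals in Cy5 from the mean of both arrays, was tested against 0 over the 12 exposures. With limma and Benjamini-Hochberg adjustment, 848 of 6504 features passed (13%), and 9 of the 38 did (23.7%). All 9 were higher on the array with exposed animals in Cy5, by 0.108 to 0.205, a direction called in 5.46% of all features. They were 7 features of the group of 9, with P13DA2 and P9AG7. The count of 9 was 1 without the tailings exposures, 1 without the creek exposures, 7 without the portal exposures and 0 without the upstream exposures. The share of all features was 0.999%, 1.18%, 8.81% and 1.06% in these 4 fits, so it moved in the same way. Averaging both arrays cancels a constant offset of this kind.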

How the data were processed

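Whole-animal RNA from 12 exposures was compared with control RNA on 24 two-colour arrays. The authors deposited 1 log ratio per feature and array, read here as log2 values, already turned to one direction and centred (array medians -0.0265 to 0.0177). Its base, the scanner, background correction and filters were not given in the sources used here. Both arrays of an exposure were averaged, and a blank on either gave a blank. With limma 3.58.1 in R 4.3.3, 6504 features were fitted with 1 mean per site and a shared spread, tested on simulated data first. Portal means were tested against 0, which leaves out the control's own spread, exposure numbers by a moderated F with site in the fit, and dye offsets against 0. Benjamini-Hochberg adjustment ran over all features tested, at 0.05. P-values measure the spread between exposures. In the fit of 24 single arrays, the spread between both arrays of an exposure enters as well. The members, lists and tests were chosen with earlier results of these data known. Named features are 2 for each list: the lowest means at tailings, creek and upstream (negative in all 3 exposures), the lowest and the highest portal means with 3 values, the widest called ranges over exposure numbers, and the largest and smallest differences among tailings, creek and upstream means. Others were named after their values were seen. The labels number the exposures without saying what a number shares. Between same-numbered exposures, deviations from site means had correlations of 0.482 to 0.812 for portal with upstream, 0.166 to 0.557 for portal with creek and -0.0636 to 0.153 for portal with tailings. They were -0.215 to 0.571 for upstream with tailings, -0.0349 to 0.638 for upstream with creek and 0.39 to 0.514 for tailings with creek.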

Additional observations from a re-analysis of the deposited data

How the results depend on the processing

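The number of features meeting the thresholds, 38, was 64 with arrays scaled to one median absolute deviation (32 shared), 20 when all 12 values were needed, 24 with the second upstream exposure turned, 13 at thresholds of -1 and -0.5 and 118 at -0.6 and -0.3. It ran from 24 to 117 when single exposures were left out. The median of exposures in place of the mean gave 32 features, 19 of them shared. Quantile normalisation of the arrays gave 57 (27 shared). First arrays alone gave 34 (21 shared) and second arrays alone 48 (26 shared). When an exposure was averaged over whichever arrays had a value, 47 features met the thresholds (33 shared). The portal count of 0 was 6 among features with all 12 values (170 of all such features), 21 with exposure numbers as a replicate block (1087 of all 6504 features, against 0 without it) and 12 when the 24 single arrays were fitted with a term for the dye (252 of all features), and ran from 0 to 6 without single exposures. Leaving out number 2 or number 3 at all sites was chosen after seeing the data. Without number 2, 0 of 21 testable members passed, and 9 of all testable features did. Without number 3, 0 of 32 testable members passed, and 0 of all testable features did. The portal median of -0.85 kept its sign in all 8 alternatives run, from -0.997 to -0.61. The count of 12 for exposure number (8.63% of all testable features) was 5 of 20 among features with all 12 values (6.88%) and ran from 4 to 11 without single exposures, with 24 to 37 members testable and 3.58% to 7.97% of all testable features called. It was 9 with the second upstream exposure turned, also chosen after seeing the data. The dye count of 9 (848 of all features) was 1 without the tailings (65), 1 without the creek (77), 7 without the portal (573) and 0 without the upstream exposures (69). Fewer features or exposures enter several of these fits. Otherwise the cause was not tested. The tailings means of A6N18 and A1D5 turned to 0.0412 and 0.0485 without exposure 3. The upstream mean of P9AA5 turned to 0.604 without exposure 1, and its portal mean to -1.35 without exposure 3. Signal over background was not used here, so its limit on low features is unknown.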
